A study of Mus musculus with 24 samples.

Results

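MIN6 cells, a mouse insulinoma line with traits of pancreatic β cells, were compared as untreated stable lines. The mean of 2 lines made to inhibit (ZIP) or to overexpress (OE) miR-146a-5p was set against the scrambled control line (Scr). ZIP and OE had equal weight. The genes described are those that moved the same way in both modified lines. A gene belonged to them when each modified line differed from Scr past the study's limits, that is by 1.5-fold or more with p below 0.05 before adjustment, and with the same sign. Of 17696 genes tested, 1051 did so, with 453 higher and 598 lower in both lines than in Scr.

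mRNA purified from total RNA was sequenced as bulk libraries, 4 for each of 6 groups (Scr, ZIP and OE, and these lines after cytokine treatment, written Scr+Cy, ZIP+Cy and OE+Cy). The comparison used the 12 untreated libraries, 4 a group, and the 12 treated libraries served as a second look at the same genes. Every group carried a lentiviral vector and had passed puromycin selection. Scr expressed a hairpin with a scrambled sequence and ZIP an antisense hairpin against miR-146a, both from a vector that also marks cells with copGFP. OE expressed the miR-146a-5p mimic from another vector, with TurboRFP. By the study's qRT-PCR of untreated cells, the level of miR-146a-5p was raised in OE but did not differ between ZIP and Scr. The study also reported that cytokines raised miR-146a-5p in each line against its own untreated cells, most in Scr and least in ZIP. The lines were grown from single clones picked by their miR-146a-5p level, and the number of clones behind a line is not given in the sources used here. Clone, vector insertion and line therefore cannot be told apart, and in OE neither can the vector. Treated groups had received IFNγ at 100.0 ng/ml, TNFα at 10 ng/ml and IL-1β at 5 ng/ml for 24 h. The labels give each replicate number a code that all 6 groups share, without saying what it stands for. Nothing else says whether libraries of a group came from separate cultures, so p values measure the spread between these libraries, which may be technical.

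miR-146a-5p is a microRNA that cells make in response to inflammatory signals and that lowers the level of its target mRNAs, classically the adaptors Irak1 and Traf6 of Toll-like and IL-1 receptor signalling. An inhibitor and a mimic of a microRNA act on its targets in opposite directions. A β cell takes up glucose through the transporter Slc2a2 and releases insulin from granules that the transporter Slc30a8 loads with zinc. β cells also share many adhesion, guidance and ion channel genes with neurons.

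The microRNA that sets both modified lines apart by design is shown with its seed, positions 2 to 8, in capitals. It lies on chr11:43374435-43374456 (minus strand, GRCm38.p6, RefSeq).
mmu-miR-146a-5p: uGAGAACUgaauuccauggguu

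Of the genes tested, 13884 had a promoter sequence in RefSeq (250 bases before to 50 after the gene's start, GRCm38.p6). The promoter of 1 gene that was lower in both modified lines and those of 2 genes that were higher are shown because they differ in their CpG content. Capitals mark each CG, which reads the same on both strands. Sox12 (chr2:152397997-152398296, minus strand) encodes a transcription factor and was lower. Ins1 (chr19:52264047-52264346, plus strand), one of the insulin genes of the mouse, and Slc2a2 (chr3:28697653-28697952, plus strand) were higher.
Sox12: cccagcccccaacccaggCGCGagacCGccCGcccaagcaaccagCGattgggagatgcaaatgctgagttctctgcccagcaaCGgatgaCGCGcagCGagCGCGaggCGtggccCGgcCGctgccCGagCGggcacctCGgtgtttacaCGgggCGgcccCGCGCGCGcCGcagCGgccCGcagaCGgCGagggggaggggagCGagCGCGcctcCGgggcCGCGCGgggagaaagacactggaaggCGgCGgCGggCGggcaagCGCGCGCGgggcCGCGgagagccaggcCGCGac
Ins1: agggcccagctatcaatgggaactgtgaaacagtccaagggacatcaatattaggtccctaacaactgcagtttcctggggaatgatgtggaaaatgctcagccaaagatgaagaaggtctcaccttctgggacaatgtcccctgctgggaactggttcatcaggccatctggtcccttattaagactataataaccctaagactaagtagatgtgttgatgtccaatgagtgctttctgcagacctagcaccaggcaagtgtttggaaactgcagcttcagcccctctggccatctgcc
Slc2a2: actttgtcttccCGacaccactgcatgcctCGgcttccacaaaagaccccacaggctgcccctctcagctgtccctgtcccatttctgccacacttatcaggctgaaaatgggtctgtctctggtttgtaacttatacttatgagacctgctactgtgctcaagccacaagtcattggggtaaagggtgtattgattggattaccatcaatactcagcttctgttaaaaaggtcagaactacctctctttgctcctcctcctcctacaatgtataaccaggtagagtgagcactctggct

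These windows held 47 CG in Sox12, 0 in Ins1 and 2 in Slc2a2. A promoter was taken as CpG rich at a GC content of at least 50% and a ratio of observed to chance CG of at least 0.6. That held for 62.2% of all 13884 promoters, for 149 of 353 promoters of the genes higher in both lines (42.2%) and for 269 of 454 of those lower (59.3%). The share moved with the level of a gene in Scr. It was 27.6% over all genes under 1 CPM in Scr (the read count of a gene scaled to the depth of its library) and 76.2% over those at 1 CPM or more. For genes higher in both lines, it was 28.6% under 1 CPM and 59.2% at 1 CPM or more. For genes lower in both lines, with a median of 4.00 CPM in Scr, the share was not split by level. The TATA box letters TATAAA, on either strand, were sought only from 50 to 10 bases before the gene's start. They stood there in 2.18% of all promoters, in 2.55% of those of genes higher in both lines and in 3.52% of those of genes lower.

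The averaged difference of ZIP and OE from Scr passed the study's limits for 2928 genes, 16.5% of those tested. Of these, 1238 were higher (7.00%) and 1690 lower (9.55%). Each line alone differed from Scr in 2633 genes (ZIP, 14.9%) and in 4540 genes (OE, 25.7%). The 1051 genes that moved the same way made up 5.94% of the genes tested, 2.56% higher and 3.38% lower. Another 410 genes passed in both lines with opposite signs. As both comparisons share the Scr libraries, the number of genes that moved together is a description and was given no test. Of the 1051, 880 also had a Benjamini-Hochberg adjusted p value under 0.05 in both lines (edgeR quasi-likelihood test), and 1043 had one in the averaged comparison.

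**Figure D1:**
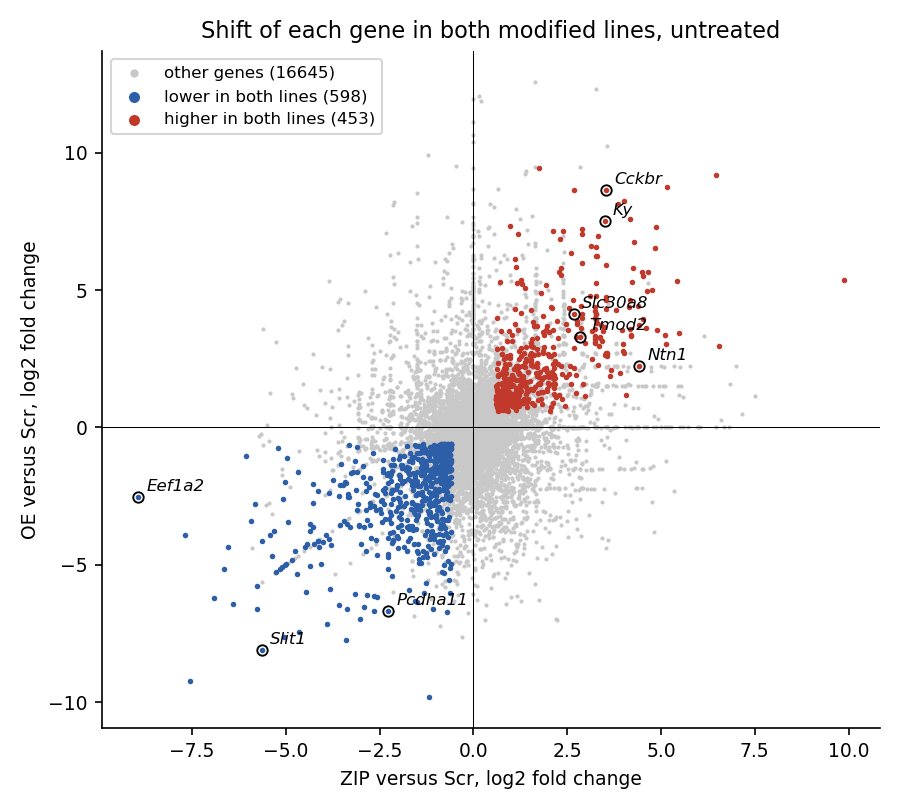
Log2 fold change of each of the 17696 genes in ZIP versus Scr (horizontal axis) and OE versus Scr (vertical axis), untreated. Red points are the 453 genes higher in both lines, blue points the 598 lower and grey points all others, and rings mark the genes named in the plot, of which Eef1a2 lay farthest to the left of the ringed genes and Slit1 lowest.

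Most of these genes were protein coding (956 of 1051), and 86 were long noncoding RNAs. Their level in Scr was low, with a median of 0.682 CPM for the genes higher in both lines and 4.00 CPM for those lower. In 92 of the 453 higher genes, no Scr library held more than 3 reads. In 61 of the 598 lower genes, no library of ZIP or OE did. The 4 Scr libraries did not overlap the 8 libraries of the modified lines in 808 of the 1051 genes (76.9%), against 11.7% of all genes, a share that the choice of the genes fixes in part. The fold change in the weaker line was at least 4 for 259 genes and between 1.5 and 2 for 410. Just inside the limit, the weaker of the 2 log2 fold changes was −0.59 for Marchf3, Fam126a, Gucy1a2 and Lrfn1 and 0.59 for Cd44. Just outside it stood Lysmd2, Scg3, Sestd1, Cdkl1 and Disp3, with 0.58 in size.

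Slit1, a secreted guidance ligand of the Robo receptors (chr19:41600257-41743856, mm10, minus strand), was the most abundant in Scr of the 12 lower genes named for their large fold change. Its level was 483, 446, 472 and 445 CPM in Scr, 6.40, 7.40, 10.3 and 12.8 CPM in ZIP, and 0.876, 2.18, 1.49 and 2.13 CPM in OE. All libraries of the modified lines lay far below all of Scr, and the averaged log2 fold change was −6.87 ± 0.18 (SE, adjusted p = 1.115e-18). Sox12, a transcription factor of the SoxC group whose CpG-rich promoter is printed above, stood at 40.0, 33.9, 36.0 and 37.5 CPM in Scr, at 2.09, 1.39, 2.20 and 2.76 in ZIP and at 0.725, 1.69, 1.85 and 2.91 in OE. The levels of ZIP and OE overlapped each other and none reached Scr, with an averaged log2 fold change of −4.24 ± 0.17. Hmx1, a homeobox factor, averaged 4.88 ± 0.565 CPM (SD, n = 4) in Scr against 0.142 ± 0.0954 in ZIP and 0.150 ± 0.0771 in OE, a 32.5-fold difference.

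Lrch2, a leucine-rich repeat protein with a calponin homology domain, was at 18.2, 20.4, 23.2 and 23.4 CPM in Scr, at 0.366 to 0.992 CPM in ZIP and at 0.060 to 0.164 CPM in OE. No library of OE reached the lowest of ZIP, so its level differed between the modified lines as well (OE versus ZIP, adjusted p = 6.899e-06). Ablim1, an actin-binding LIM protein, was at 16.1 ± 1.29 CPM in Scr, 0.639 ± 0.145 in ZIP and 0.0863 ± 0.0270 in OE (SD, n = 4). Msn (moesin, which ties actin to the cell membrane) was 21.3-fold lower on average, from 14.4 ± 1.83 CPM. Kirrel, an adhesion protein of the immunoglobulin family, and Dclk2, a doublecortin-like kinase, were 32.5-fold and 16.8-fold lower and lie 157.7 kb apart on chromosome 3. Npas2, a partner of the circadian clock factors, and Lonrf2 were 32.3-fold and 26.0-fold lower and lie 357.6 kb apart on chromosome 1. Sox13, of the SoxD group, was at 2.14 ± 0.295 CPM in Scr and had at most 3 reads in every OE library, so it was at least 21.8-fold lower in OE. The vomeronasal receptor gene Vmn1r179 had at most 3 reads in all libraries of the modified lines, against 2.38 ± 1.00 CPM in Scr. It was at least 21.7-fold lower in ZIP and at least 24.2-fold lower in OE, but its reads may be shared with relatives of its large family.

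Of the lower genes with at least 100 CPM in Scr, Eef1a2 had the next largest averaged fold change after Slit1 (chr2:181141758-181157015, mm10, minus strand). It encodes a tissue-restricted form of translation elongation factor eEF1A and stood at 316, 322, 317 and 336 CPM in Scr. In OE, it was at 42.7, 56.6, 58.3 and 62.9 CPM, and in ZIP at 0.146, 0.365, 0.651 and 1.38 CPM. Both lines were thus below Scr in all libraries, and ZIP far below OE (OE versus ZIP, adjusted p = 1.56e-15). Its relative Eef1a1 has a similar coding sequence, so reads of the pair may have been divided between them. Ccdc6 was 3.19-fold lower (639 ± 40.0 CPM in Scr, 262 ± 18.3 in ZIP and 153 ± 6.75 in OE), and the kinesin Kif13b 3.10-fold lower from 503 ± 21.0 CPM. Hgsnat, a lysosomal enzyme of heparan sulfate breakdown, was 2.93-fold lower and the collagen gene Col16a1 5.52-fold lower.

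**Figure D2:**
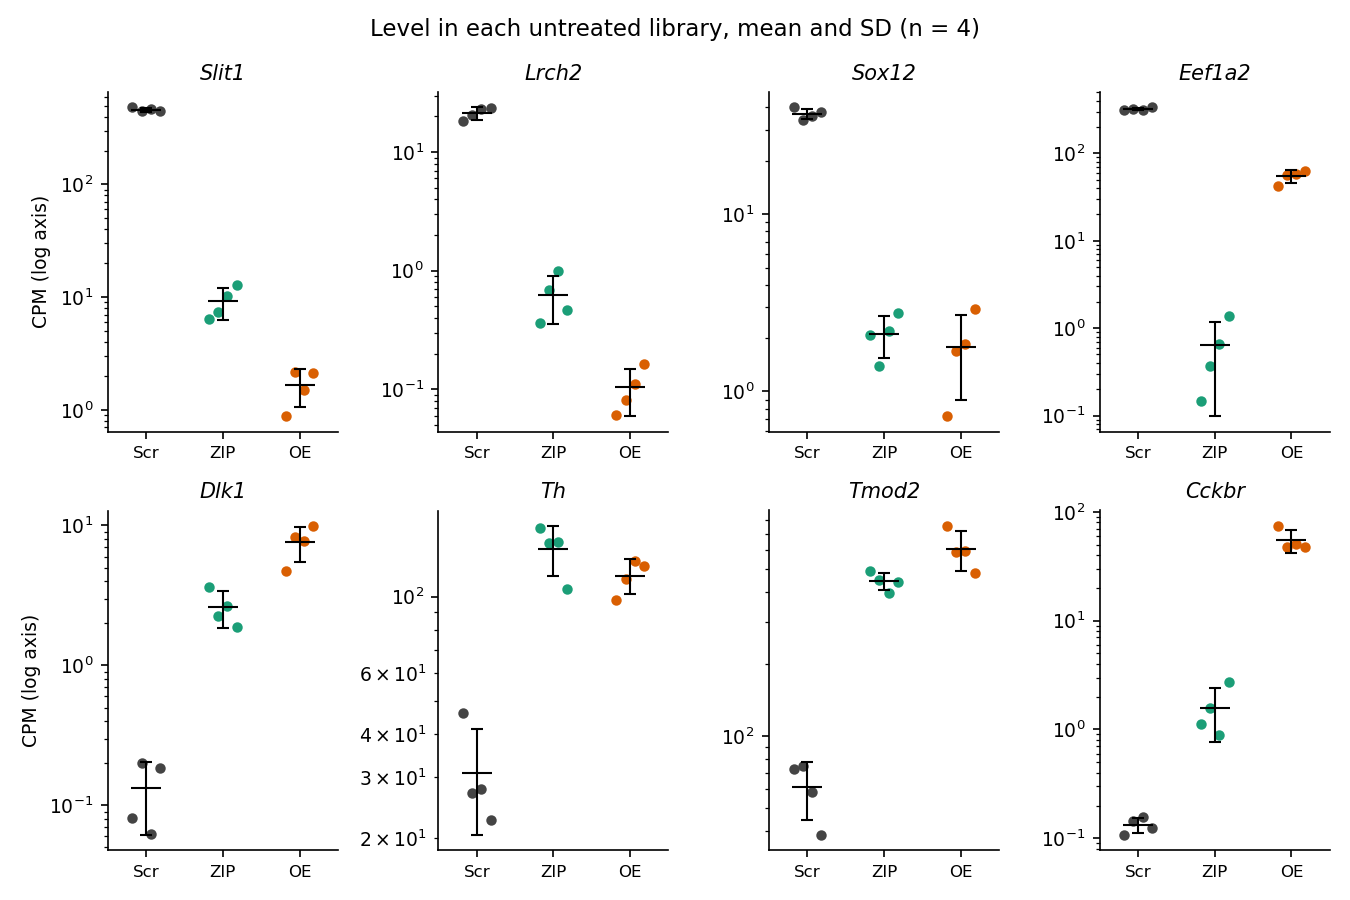
Level of 8 named genes in each untreated library (points, CPM on a log axis) for Scr, ZIP and OE, with the mean and SD of 4 libraries. In the upper row (Slit1, Lrch2, Sox12 and Eef1a2) every library of ZIP and OE lies below all Scr libraries, and in the lower row every one lies above them.

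Among the genes higher in both lines, several were close to undetected in Scr. Dlk1, an imprinted membrane protein related to Notch ligands (chr12:109452823-109463336, mm10, plus strand), was at 0.081, 0.201, 0.063 and 0.186 CPM in Scr, at 3.66, 2.26, 2.67 and 1.88 in ZIP and at 4.75, 8.22, 7.75 and 9.92 in OE. The lowest library of the modified lines exceeded the highest of Scr, and the averaged log2 fold change was 5.04 ± 0.35 (adjusted p = 3.784e-11).

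Cckbr, the receptor of gastrin and cholecystokinin, averaged 0.133 ± 0.0214 CPM in Scr, 1.58 ± 0.809 in ZIP and 54.8 ± 12.9 in OE (SD, n = 4). Eda2r, a receptor of the TNF receptor family, averaged 0.0490 ± 0.0582, 1.40 ± 0.565 and 2.79 ± 0.984 CPM in the same order. Def6, an activator of small GTPases, was 8.97-fold higher on average, from under 1 CPM in Scr. Of the others named for their fold change, Ccdc8, Fam13a, Ky, Tmem59l and Slc35f3 also started below 1 CPM and were 4.75, 3.56, 5.51, 5.15 and 4.76 higher on the log2 scale. The gene Xlr3c stood at 4.25 ± 0.764 CPM in Scr, 44.8 ± 3.78 in ZIP and 56.7 ± 4.78 in OE, but belongs to an X-linked family of near-identical copies and its reads are uncertain.

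At higher levels, Tmod2, which caps the slow-growing end of actin filaments (chr9:75565622-75611325, mm10, minus strand), was at 72.9, 75.0, 58.1 and 38.7 CPM in Scr. It reached 488, 449, 397 and 439 CPM in ZIP and 753, 587, 594 and 478 CPM in OE, with the modified lines overlapping each other and an averaged log2 fold change of 3.08 ± 0.20. Pappa2, a protease that cleaves an IGF binding protein, was at 60.5 ± 16.9 CPM in Scr, 261 ± 45.9 in ZIP and 1218 ± 254 in OE. Th, the rate-limiting enzyme of catecholamine synthesis, was 4.07-fold higher (30.9 ± 10.4, 138 ± 22.6 and 115 ± 13.1 CPM). Clptm1l was 2.79-fold higher and Hap1, a trafficking adaptor known as a partner of huntingtin, 2.08-fold higher.

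Of 31 hormone and granule cargo genes, 4 were higher in both modified lines (Ins1, Iapp, Slc30a8 and Nucb2) and 0 lower, against 2.56% and 3.38% of all genes. Their median averaged log2 fold change was 0.38, beside 0.00 over all genes. Slc30a8 (chr15:52295553-52335798, mm10, plus strand) was at 34.3, 22.3, 18.6 and 12.4 CPM in Scr, at 173, 138, 144 and 105 in ZIP and at 352, 378, 397 and 402 in OE. The groups did not overlap, and the averaged log2 fold change was 3.40 ± 0.24 (adjusted p = 4.04e-11). Ins1 was at 811, 623, 528 and 735 CPM in Scr, at 1307, 1309, 1429 and 1176 in ZIP and at 6737, 7546, 7700 and 8708 in OE. Its increase was 1.94-fold in ZIP and 11.4-fold in OE. Its near-identical relative Ins2, at 10930 CPM in Scr, 14960 in ZIP and 18880 in OE, did not reach the fold limit in ZIP (log2 fold change 0.45 ± 0.11), and reads of the pair may have been divided between them. Iapp, the hormone amylin, was at 3833 ± 411, 6528 ± 442 and 11430.0 ± 555 CPM, with little signal in the overlapping gene Slco1a5 (at most 5.73 CPM). In bulk samples, fewer cells that express a gene and less RNA per cell cannot be told apart.

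Of 35 genes of glucose sensing and exocytosis, 2 were higher in both lines and 0 lower. The median over the 35 was −0.06 averaged, 0.10 in ZIP and −0.13 in OE. Slc2a2, whose promoter with its 2 CG is printed above, was at 37.7, 20.8, 22.1 and 15.5 CPM in Scr, at 167, 130, 171 and 93.9 in ZIP and at 68.8, 99.2, 110 and 93.1 in OE. It was above Scr in all 8 libraries of the modified lines, by 4.74-fold on average. The summed level of 10 defining β cell genes, of which Ins2 was the largest, ran from 25910 to 33710 CPM in Scr, from 36080 to 39340 in ZIP and from 48980 to 52610 in OE.

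Of 29 β cell transcription factors measured, 3 were higher in both lines and 1 was lower. Rfx6, needed for islet development, was at 9.89 ± 0.346 CPM in Scr, 25.6 ± 1.04 in ZIP and 45.5 ± 2.38 in OE (SD, n = 4). Mlxipl, the carbohydrate response factor ChREBP, was at 51.5 ± 6.96, 79.3 ± 10.2 and 136 ± 15.1 CPM, and Foxa1 was below 2 CPM on average in each group, with overlapping libraries. The lower one was Nkx6-2 (19.9 ± 1.87, 11.1 ± 0.773 and 0.512 ± 0.282 CPM), which overlaps the more abundant gene Inpp5a, and no source states that strand was used in counting. The central factors did not move together. Pdx1 was at 824, 932 and 627 CPM in Scr, ZIP and OE, Mafa at 1050, 782 and 716 CPM and Nkx6-1 at 254, 328 and 167 CPM, and none passed the limits in both lines with the same sign. Of 29 receptors that act on insulin secretion, the galanin receptor Galr1 (1.11 averaged log2 fold change) and the calcium-sensing receptor Casr (1.89) were higher in both lines, and 0 were lower. Of 22 genes normally low in β cells, Oat was higher. Ldha (lactate dehydrogenase) was lower, at 630.5 ± 316 CPM in Scr, 298 ± 92.3 in ZIP and 87.9 ± 50.2 in OE, but the libraries of Scr and ZIP overlapped and the adjusted p value in ZIP was 0.104 (edgeR).

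**Figure D3:**
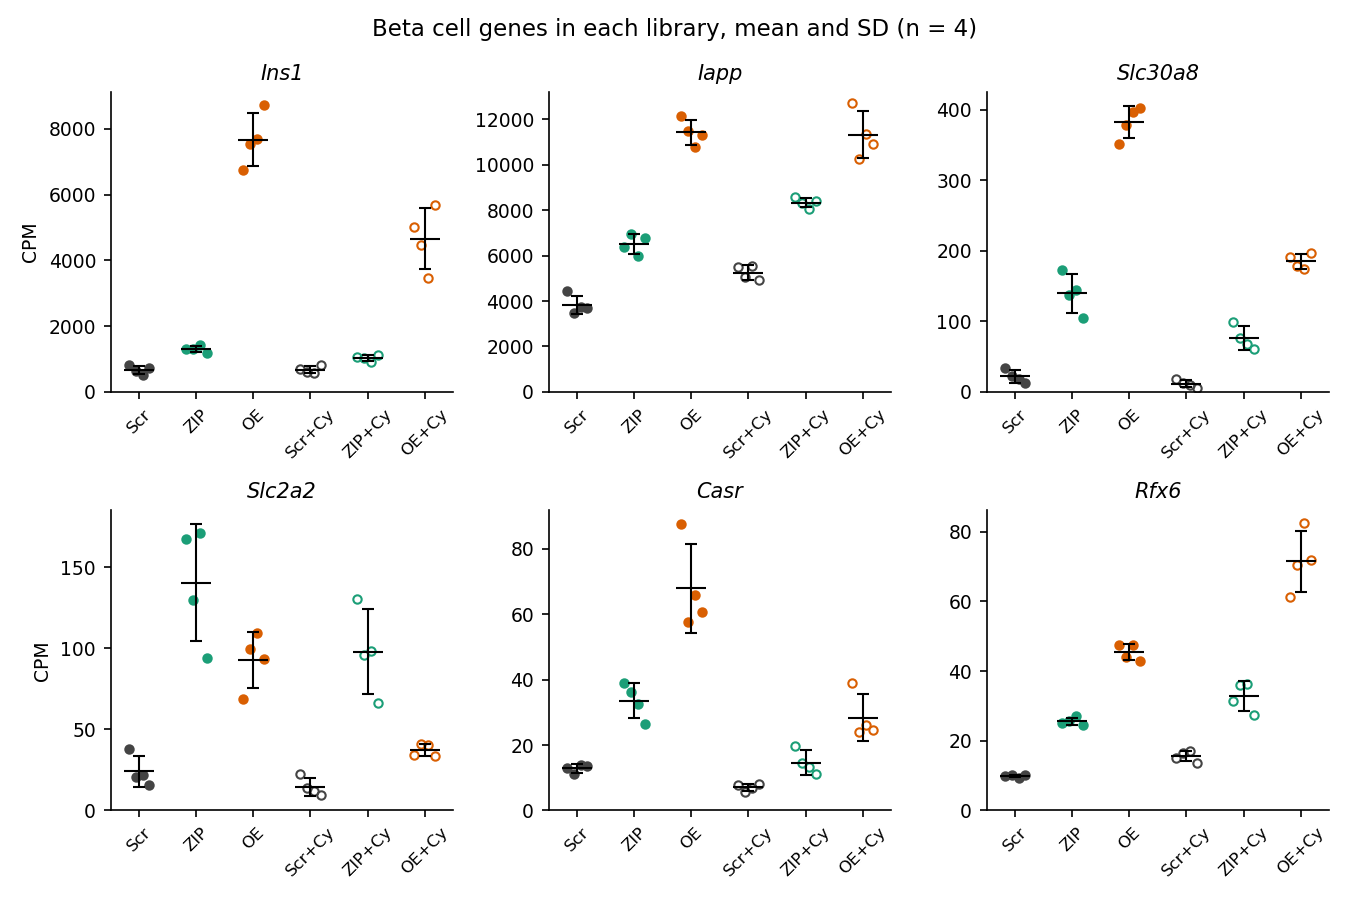
Level of 6 β cell genes in each library (points, CPM on a linear axis from 0) for Scr, ZIP and OE without cytokines (filled) and with them (open), with the mean and SD of 4 libraries. Untreated levels of Ins1, Iapp, Slc30a8, Slc2a2, Casr and Rfx6 are above Scr in every ZIP and OE library.

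Genes of guidance, adhesion, transmitter receptors and channels were counted beside the 3.38% of all genes that were lower and the 2.56% that were higher in both lines. Among 68 genes of axon guidance, 6 were lower in both lines and 2 higher. The median log2 fold change of the 68 was −0.17 averaged, −0.02 in ZIP and −0.28 in OE. Beside Slit1, the lower ones included the receptors Plxnd1 (7.47 ± 0.990 CPM in Scr, 3.10 ± 0.531 in ZIP and 1.68 ± 0.347 in OE) and Epha8 (15.0 ± 2.24, 5.31 ± 0.930 and 1.64 ± 0.549 CPM). The ligand netrin-1 (Ntn1) was higher, at 2.40 ± 0.402 CPM in Scr, 51.2 ± 8.42 in ZIP and 11.2 ± 0.902 in OE. Of 56 cadherins and synaptic adhesion genes, 6 were lower and 1 higher (median −0.21 averaged, 0.00 in ZIP and −0.39 in OE). Chl1, an adhesion protein of the L1 family, was at 69.8 ± 7.93 CPM in Scr, 13.0 ± 1.43 in ZIP and 31.0 ± 2.08 in OE. Cdh8, a classical cadherin, was at 162 ± 7.18, 102 ± 12.2 and 74.9 ± 6.80 CPM, and L1cam at 27.6 ± 2.98, 15.8 ± 2.44 and 9.31 ± 1.31 CPM. The contactin gene Cntn4 and Cntnap5a, which encodes a contactin-associated protein, fell by 2.00 and 1.88 on the log2 scale, while Lrrtm1 lies within the more abundant Ctnna2, so that its reads are uncertain.

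The median over 48 receptors and enzymes of glutamate, GABA and acetylcholine signalling was −0.31 averaged, 0.07 in ZIP and −0.55 in OE. Of these genes, 6 were lower and 0 higher in both lines. They were the glutamate receptor genes Grik3 and Grin3a, the GABA receptor genes Gabrd and Gabbr1 and the nicotinic receptor genes Chrna4 and Chrna5. Grin3a was at 5.36 ± 1.61 CPM in Scr, 0.50 ± 0.32 in ZIP and 1.32 ± 0.447 in OE, and Grik3 at 11.3 ± 1.60, 2.93 ± 0.444 and 1.32 ± 0.777 CPM. Chrna5 was at 5.74 ± 0.683, 0.936 ± 0.316 and 0.329 ± 0.0745 CPM, and its gene overlaps Chrna3, which was under 2 CPM in each group. Of 82 potassium, calcium and sodium channel genes, 12 were lower and 7 higher, with a median of 0.00. The sodium channel gene Scn1a was at 4.92 ± 0.638 CPM in Scr, 0.745 ± 0.205 in ZIP and 0.301 ± 0.188 in OE. Kcnk10, a leak potassium channel, was higher (0.948 ± 0.262, 3.95 ± 1.5 and 5.73 ± 0.893 CPM), and the potassium channel gene Kcnq5 fell by 3.46 on the log2 scale. Kcnt1, also a potassium channel, had at most 3 reads in every library of ZIP and OE and was at least 7.22-fold lower in ZIP and at least 8.06-fold lower in OE.

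Protocadherins are adhesion proteins, and cells choose those of the α and γ clusters in combinations from clustered first exons. Of 70 protocadherin genes, 17 were lower in both lines and 4 higher, beside 3.38% and 2.56% of all genes. Their median log2 fold change was −0.41 averaged, −0.19 in ZIP and −0.97 in OE. The largest fall was that of Pcdha11, from 41.3, 42.5, 42.2 and 44.4 CPM in Scr to 7.98, 9.63, 8.55 and 9.11 in ZIP and 0.453, 0.544, 0.331 and 0.295 in OE. The 3 groups were apart from each other in every library. Pcdha12 and Pcdha10 of the same cluster went the other way. Pcdha12 was at 4.52 ± 2.08 CPM in Scr, 27.7 ± 3.14 in ZIP and 13.5 ± 1.30 in OE, and Pcdha10 at 1.35 ± 0.337, 5.49 ± 1.08 and 15.1 ± 2.74 CPM. Pcdha4, Pcdha5, Pcdha8 and Pcdha9 were lower in both lines, as Pcdha11 was, with Pcdha9 at 47.3, 21.45 and 16.0 CPM. Of the 17 lower genes, 5 were of the α cluster, 2 of the β cluster and 9 of the γ cluster, and Pcdh15 lies outside the clusters. Gene models of the α and γ clusters overlap and share their last exons, so their levels are uncertain as levels of single isoforms.

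Of 89 genes of TGF-β, BMP, Wnt and Notch signalling, 10 were lower and 6 higher in both lines, with a median of −0.24. Notch1 was at 82.5 ± 8.05 CPM in Scr, 47.3 ± 2.82 in ZIP and 26.8 ± 3.36 in OE, and its ligand Dll1 at 12.9 ± 1.55 CPM in Scr, 6.83 ± 1.66 in ZIP and 2.55 ± 0.536 in OE. The secreted factor Wnt4 was lower (52.8 ± 3.57, 32.4 ± 2.02 and 19.9 ± 1.87 CPM) and Wnt5a higher (0.858 ± 0.136, 2.07 ± 0.819 and 35.8 ± 3.08 CPM). The BMP antagonist Grem1 was higher (0.649 ± 0.110, 1.61 ± 0.439 and 24.2 ± 2.74 CPM), as were the Wnt pathway agonist Rspo4 (2.09 ± 0.498, 6.12 ± 1.15 and 16.3 ± 4.21 CPM) and Tgfb2. The Wnt antagonist Sfrp5 was lower, but 1 Scr library held 4.02 CPM against a group mean of 1.72. Of 62 matrix and integrin genes, 4 were lower and 3 higher (median −0.39 averaged, 0.24 in ZIP and −0.79 in OE). Among them were the laminin chain Lama1 (42.2 ± 12.7, 14.2 ± 2.17 and 0.520 ± 0.163 CPM), the collagen Col8a1 and the integrins Itga2 and Itga7. Without Scr 1, Itga7 no longer passed (−1.10 on the log2 scale). Of 41 imprinted genes, Dlk1 and Ndn were higher and Mirg and Cdkn1c lower. Ndn, the growth suppressor necdin, was at 0.862 ± 0.235, 5.17 ± 0.439 and 4.07 ± 0.302 CPM.

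For the lists of stress, immune and housekeeping genes, the counts are to be read beside 2.56% higher and 3.38% lower over all genes. Of 50 interferon-stimulated genes only Ifit2 was lower (averaged log2 fold change −0.76), and of 23 class I antigen presentation genes only the immunoproteasome subunit gene Psmb8 (−1.57, with overlapping libraries). Of 42 genes of the integrated stress and unfolded protein responses, Atf3 (1.19) and Creld2 (0.98) were higher and 0 lower. Of 46 NRF2 targets and glutathione enzymes, Gpx7 was higher (3.36 ± 0.630 CPM in Scr, 5.97 ± 0.955 in ZIP and 18.9 ± 2.26 in OE) and 4 were lower, among them Hmox1, a heme-degrading enzyme (67.4 ± 9.89, 41.6 ± 8.17 and 22.1 ± 5.88 CPM), and the efflux pump gene Abcc1. Of 29 p53 targets, Eda2r was higher and Tnfrsf10b lower. Of 59 cell cycle genes, only the inhibitor Cdkn1c was lower, from 2.54 ± 0.326 CPM to 0.939 ± 0.263 in ZIP and 0.314 ± 0.0757 in OE. None of 28 cholesterol genes and 102 ribosomal protein genes passed in both lines with one sign, and of 49 complex I subunits Ndufs6 did (higher, 0.86). Of 24 metallothioneins and zinc transporters, 1 was higher (Slc30a8) and 0 lower. Of 376 Zfp genes, 5 were higher and 12 lower, with Zfp709 and Zfp112 among the higher and Zfp454 and Zfp72 among the lower. Zfp72 no longer passed without Scr 1 (−0.997). Of 313 solute carrier genes, 15 were higher and 13 lower, among them Slc9a9 (higher) and Slc16a7 (lower).

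The 10 genes that the study took as targets of miR-146a-5p were chosen on these samples, and their count is therefore no independent evidence. The study added Gpx1 for its part in oxidative stress and not as a predicted target. By the limits, 0 of them moved together in both lines and 4 moved in opposite directions. Myrip stood at 1.06 ± 0.294 CPM in Scr, 12.8 ± 0.735 in ZIP and 0.0567 ± 0.0680 in OE, and Eya1 at 17.9 ± 2.22, 4.33 ± 0.648 and 50.2 ± 5.61 CPM. Brsk2 (−0.72 in ZIP and 2.14 in OE on the log2 scale) and Gpx1 (0.62 and −0.65) also passed with opposite signs. Their averaged log2 fold changes were 0.71 and −0.01. Those of the rest were −0.18 for Glrx, −0.93 for Rest, −0.43 for Sort1, −1.35 for Nrg1, −0.49 for Perp and −0.34 for Mapt. Gpx1 and Myrip lie on chromosome 9, in stretches whose genes were raised in ZIP as a whole. The median log2 fold change was 0.81 in ZIP and −0.07 in OE from 100 to 110 Mb (Gpx1). From 120 to 130 Mb (Myrip), it was 0.82 and 0.20. The part of these stretches in the values of both genes was not tested. Irak1 averaged 170.2 ± 10.7 CPM in Scr, 203 ± 12.1 in ZIP and 246 ± 5.21 in OE, above Scr in all 8 libraries but under the fold limit. Traf6 averaged 74.5 ± 2.96, 75.8 ± 6.16 and 59.9 ± 1.89 CPM.

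Although the direction was shared, the size often differed between the modified lines. OE versus ZIP passed the limits for 27.3% of all genes and for 483 of the 1051 genes (46.0%). The shift from Scr was the larger in OE for 408 of these and in ZIP for 75. The median log2 fold change of the higher genes was 1.41 in ZIP and 1.94 in OE, and that of the lower genes −1.27 and −2.08.

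The same averaged comparison in cytokine-treated cells rested on libraries that were in neither of the comparisons that chose the genes. They came from the same lines and were in the same model, which takes 1 estimate of the spread from all libraries. In these, the mean of ZIP+Cy and OE+Cy differed from Scr+Cy in 3339 genes (18.9% of those tested, 7.93% higher and 10.9% lower). Of the 453 genes higher in both untreated lines, 340 passed again in that direction (75.1%). Of the 598 lower genes, 496 did (82.9%). Over all 1051 genes, 836 passed the same way, 4 the other way, and 1014 kept their sign, as did 74.2% of all genes tested. The 4 Scr+Cy libraries did not overlap the 8 treated libraries of the modified lines in 647 genes (61.6%), against 11.6% of all genes. Genes that did not pass again were low, with a median of 0.479 CPM in Scr against 2.71 CPM for those that did.

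With cytokines, Slit1 averaged 366 CPM in the Scr line, 5.31 in ZIP and 1.34 in OE, and Eef1a2 295, 0.420 and 52.1 CPM. Slc30a8 stood at 11.6, 76.4 and 185 CPM in the same order, so that the averaged log2 fold change was 3.36 after 3.40 without cytokines. Dlk1 had an averaged log2 fold change of 5.04. Slc2a2 stood at 14.6, 97.7 and 37.3 CPM.

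The averaged difference itself changed with cytokines in 681 genes at an adjusted p value under 0.05 (interaction, 3.85% of those tested), of which 80 were among the 1051 (7.61%). It was smaller with cytokines in 71 of these and larger in 9. The untreated values that chose the genes enter this difference, so that count and its direction are a description. The count over all genes depended on the setting and ran from 369 to 1201 when single libraries were left out (369 without Scr+Cy 4, 395 without Scr 1, 406 without Scr+Cy 2, 431 without Scr 3 and 1201 without OE+Cy 1). Hgsnat went from −1.55 to −0.54 on the log2 scale (adjusted p = 4.628e-06), and the netrin gene Ntn1 from 3.32 to 2.11 (adjusted p = 0.000185). Galr1 went from 1.11 to 0.19. Plxnd1 went from −1.71 to 0.31, which was no longer past the limits. The 4 genes that passed the other way were Ifit2, Lif, Niban1 and Sync, named after their values were seen. Ifit2 was at 24.1 CPM in Scr against 13.9 and 14.5 in ZIP and OE, and at 155 in Scr+Cy against 172 and 558 in ZIP+Cy and OE+Cy. The cytokine gene Lif was at 0.368, 0.126 and 0.186 CPM without and at 2.13, 1.88 and 21.3 CPM with cytokines. None of the 12 higher and 12 lower genes named for their fold change had a changed difference at that limit, and the smallest adjusted p values were those of Slc35f3 (0.0979), Npas2 (0.136) and Fam13a (0.223).

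**Figure D4:**
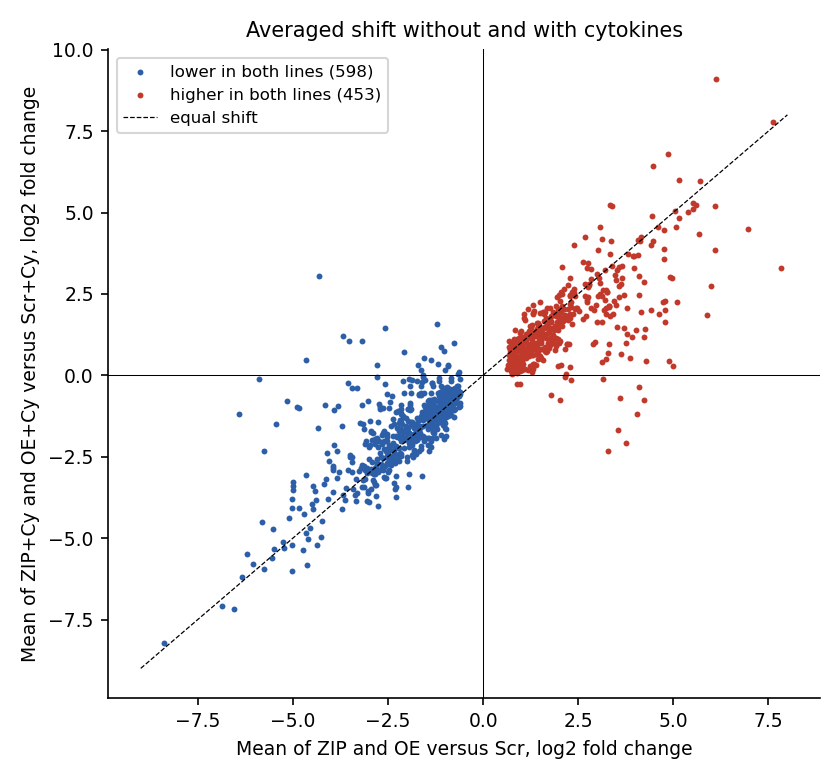
Averaged log2 fold change of the 1051 genes without cytokines (horizontal axis) and with cytokines (vertical axis). Red points are genes higher and blue points genes lower in both untreated lines, and the dashed line marks an equal shift. Of the 1051 points, 1014 keep their sign, as do 74.2% of all genes tested.

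The share of such genes differed between chromosomes, with no test run on it. The share lower in both lines was 7.20% on chromosome 19 (43 of 597 genes) and 6.92% on chromosome 8 (61 of 882), against 3.38% of all genes. The share higher was 5.44% on chromosome 9 (53 of 975), against 2.56%. Windows of 10 Mb, counted over genes of at least 1 CPM in Scr or in both modified lines, held the following. Between 80 and 90 Mb of chromosome 8, 21 of 77 genes were lower in both lines, 97.4% lay below 0 in the averaged comparison, and the median log2 fold change was −0.61 in ZIP, −0.60 in OE and −0.60 in the treated comparison. Between 90 and 100 Mb, 12 of 45 genes were lower (median −0.58). On chromosome 19, the stretch from 40 to 50 Mb held 20 lower genes of 101 (median −0.41), Slit1 among them. Between 70 and 80 Mb of chromosome 9, which holds Tmod2, 14 of 45 genes were higher (median 0.53 averaged, 0.27 in ZIP, 0.58 in OE and 0.13 with cytokines). Between 120 and 130 Mb, 11 of 39 were (median 0.82 in ZIP and 0.20 in OE).

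The functions of the genes in these stretches were not analysed as a set. On chromosome 8, Vps35, a part of the retromer that sorts endosomal cargo, was at 623, 352 and 334 CPM in Scr, ZIP and OE. The nucleoporin gene Nup93 was at 401, 204 and 172 CPM. On chromosome 9, the motor protein gene Myo5a was at 230, 389 and 403 CPM, and Tmem30a at 208, 357 and 329 CPM. These 4 were named after their values were seen. Chromosome 8 from 80 to 100 Mb, chromosome 9 from 70 Mb and chromosome 19 from 20 Mb held 143 of the 1051 genes, which leaves 908 elsewhere, 398 higher and 510 lower. DNA copy number was not analysed here.

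**Figure D5:**
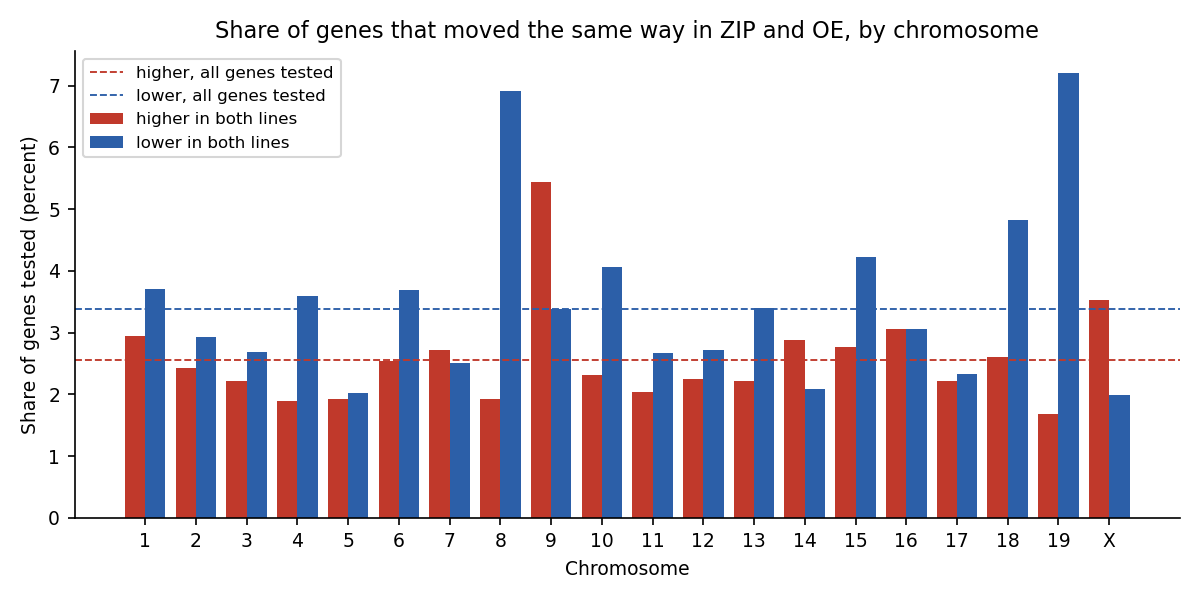
Share of the genes tested on each chromosome (percent) that were higher (red bars) or lower (blue bars) in both modified lines than in Scr. Dashed lines give the share over all genes tested, 2.56% higher and 3.38% lower, and the tallest bars are the lower genes of chromosomes 19 and 8 and the higher genes of chromosome 9.

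Depth ran from 26657792 to 37168232 reads per library, and libraries of 1 group differed from each other by more than sampling noise. Of the markers of other cell types, Irx1 (α cells) and Emcn (endothelium) were higher in both lines, and Fbln1 (fibroblasts) and Plvap (endothelium) were lower. The duct, acinar, δ, PP and ε cell, blood and nerve lists had no gene that moved together in both lines. Summed duct markers stood apart in OE alone, at 484 to 598 CPM against 3.65 to 9.31 in Scr and 3.70 to 6.92 in ZIP. Summed fibroblast markers ran from 5.48 to 28.6 CPM in Scr, from 4.12 to 64.0 in ZIP and from 1.69 to 5.44 in OE. Summed α cell markers ran from 1941 to 2391 CPM in Scr, from 4217 to 5185 in ZIP and from 891 to 1479 in OE, and summed nerve markers from 677 to 763, from 662 to 859.7 and from 719 to 791 CPM. Summed δ, PP and ε cell markers reached 28.8 CPM in OE and 5.58 CPM in the other lines, summed endothelial markers 16.5 and 10.98 CPM, summed acinar markers 7.21 and 0.907 CPM, and summed blood cell markers 4.84 and 3.48 CPM. The part of such signals in the genes described was not tested.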

How the data were processed

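Gene expression was measured in 24 libraries, 4 for each of 6 groups. The deposited table holds estimated counts per gene, which the authors made with STAR 2.7.8a and Partek 11.0.24.0204 on mm10 (submitters' processing notes) against RefSeq transcripts, after removing genes under 10 reads in total. The quantification step and the use of strand are not given in the sources used here. Of the values, 30.1% were not whole (tolerance 1e-06) and all were rounded. The deposited table of normalized values was not used.

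CPM are counts scaled to library size after TMM normalization. One edgeR 4.0.16 quasi-likelihood model (R 4.3.3) of 6 group means was fitted over all libraries, and its contrasts gave the log2 fold changes. Calls used the study's limits, 1.5-fold or more with p below 0.05 before adjustment, and Benjamini-Hochberg adjusted values are over all 17696 genes. Groups came from the sample labels. The script was tested on simulated data. Of 50 genes changed 1.5-fold in both modified lines, 16 passed as moving the same way, and of 50 changed 2-fold, 50 did. Of the unchanged genes, 54 also passed.

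The members, gene lists and tests were chosen with earlier results of these data known. Named genes were the 12 higher and 12 lower with the largest fold change in the weaker line (adjusted p value under 0.05 in the averaged comparison, at least 1 CPM in Scr or in both modified lines, no overlap with Scr, no predicted symbol), the 6 higher and 6 lower by the same conditions at 100 CPM or more, up to 4 members of each list, the study's targets with Irak1 and Traf6, and the 5 genes on each side of the fold limit. A few of the named genes and 1 promoter are not reported here. Depth ran from 26657792 to 37168232 reads. A floor of 3 reads corresponds to 0.0938 CPM in Scr, 0.110 in ZIP and 0.0982 in OE, and folds against a group at or under it are given as bounds that cover counting error only.

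Alternatives were DESeq2 1.42.0, median ratio size factors, adjusted p values, a filter on low counts, a fold limit of 2, untreated libraries alone, a replicate block and leaving out each library. Sequences came from RefSeq (GRCm38.p6), whose symbols matched 17680 genes.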

Additional observations from a re-analysis of the deposited data

Results flagged for a closer look

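A library was set apart where its gap to the nearest of its group exceeded Dixon's 95% critical value for 4 samples, which chance gives in about 1 in 20 groups. Among the genes lower in both lines, this held for Hmx1 in ZIP 1 (0 CPM), Vmn1r179 in ZIP 4 (0.0336), Msn in ZIP 1 (1.79), Nkx6-2 in Scr 1 (22.7), Lrrtm1 in Scr 2 (1.64), Lama1 in OE 2 (0.762), Kcnq5 in OE 1 (0), Kcnt1 in OE 3 (0.0828), Psmb8 in Scr 3 (11.8) and ZIP 4 (10.5), Cdkn1c in Scr 1 (3.02) and Abcc1 in OE 3 (52.8). It also held for Hmox1 in OE 2 (30.9), Aox1 in ZIP 4 (4.17), Sfrp5 in Scr 1 (4.02) and OE 2 (0.163), Zfp454 in Scr 4 (4.55), ZIP 4 (2.05) and OE 4 (0.622), Pcdhga8 in ZIP 4 (0.806) and Gucy1a2 in ZIP 1 (6.40). Among the genes higher in both lines, it held for Cckbr in OE 1 (74.1 CPM), Slc35f3 in OE 1 (19.01), Slc9a9 in Scr 1 (1.62) and Pcdha12 in OE 4 (11.6). For Glrx, which did not move together, it held in Scr 1 (96.7). In the averaged comparison, each of these genes kept its direction whichever single library was left out.

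The averaged difference of the modified lines from Scr differed between treated and untreated cells (edgeR interaction, adjusted p value under 0.05) for 17 of the genes named by the rule and reported. On the log2 scale, treated minus untreated, it was −0.36 for Hap1, −0.72 for Nucb2, −0.92 for Galr1, −0.58 for Oat, −1.21 for Ntn1 and −0.86 for Creld2, all higher in both lines without cytokines. It was 0.84 for both Atf3 and Cd44, which were also higher and had a larger averaged difference under cytokines. Of the genes lower in both lines, it was 1.01 for Hgsnat, 0.40 for Kif13b, 2.02 for Plxnd1, 1.17 for Lama1, 1.76 for Ifit2, 1.53 for Psmb8, 1.00 for Tnfrsf10b and 0.97 for Hmox1. The differences of Ifit2 and Plxnd1 were above 0 with cytokines. Chrna4, with −0.83, was the 1 lower gene with a larger difference of the same sign under cytokines. For Atf3 and Cd44, the gap to Scr widened mainly in OE. Atf3 went from 2.05, 4.77 and 4.59 CPM in Scr, ZIP and OE to 6.59, 13.5 and 53.3 CPM with cytokines. Cd44 went from 3.18, 13.1 and 4.75 CPM to 15.35, 61.6 and 76.05 CPM.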

How the results depend on the processing

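The 1051 genes that moved together numbered 986 with DESeq2 (953 of them among the 1051), 1053 with median ratio size factors (1038), 947 after a filter on low counts (924), 1041 with the 12 untreated libraries alone (989) and 880 by adjusted p values. A fold limit of 2 left 641, and 1938 genes in the averaged comparison, 489 that passed again with cytokines and 251 with a difference between OE and ZIP. Leaving out single libraries gave 1014 to 1056 genes that moved together, 2790 to 2957 in the averaged comparison, 2932 to 3309 in the treated one, 808 to 844 that passed again and 458 to 480 that differed between the modified lines. The number of genes whose averaged difference changed with cytokines, 681, depended most on the setting. It was 1220 with DESeq2, 3323 by unadjusted p values and 369 to 1201 without single libraries, and the cause was not tested.

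Samples with the same replicate number did not deviate together in every pair (correlations −0.114 to 0.575 over 12670 genes, with 15 of 24 pairs the best match), and the labels do not say what the numbers share, so they were not taken as pairs. For ZIP and OE, without and with cytokines, and for Scr+Cy and ZIP+Cy, each pair was above 0.1 and the best match. With the replicate block, 1074 genes moved together (1014 of them among the 1051), 2957 passed in the averaged comparison and 1564 changed with cytokines.

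Of the named genes, Itga7 (−1.10) and Zfp72 (−0.997) no longer passed without Scr 1, and Marchf3, Gucy1a2, Cdkl1 and Lysmd2 moved below the fold limit without single libraries. Gpx1, at −0.01, ran from −0.0766 to 0.036 without single libraries, and changed sign to 0.0024, 0.036, 0.0294 and 0.0204 without OE 3, Scr 1, Scr 2 and ZIP 3. The other averaged differences of the 116 named genes kept their direction and their side of the limits. By adjusted p values, Itga7 (0.102), Ldha (0.104) and Zfp72 (0.0560) did not pass in ZIP. Depth limits the genes at or under 3 reads a library, for which only bounds on the fold change can be given.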

Other observations

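The genes named here were chosen after their values were seen and belong to no list above. Among the genes higher in both lines, Entpd3, an enzyme that splits extracellular nucleotides, averaged 7.45 CPM in Scr, 50.3 in ZIP and 101 in OE (averaged log2 fold change 3.26, adjusted p = 2.015e-13 by edgeR), with 2.56 in the treated comparison. Tet1, which oxidises methylated cytosine in DNA, stood at 4.53, 3.42, 4.06 and 3.13 CPM in the Scr libraries, at 23.9, 21.8, 31.8 and 20.5 in ZIP and at 25.1, 23.4, 34.9 and 30.3 in OE. ZIP and OE overlapped each other and lay above all of Scr, by 2.80 on the log2 scale without and 2.77 with cytokines. The calcium release channel gene Ryr2 averaged 2.66, 11.6 and 31.0 CPM in Scr, ZIP and OE, and Cckar, the other cholecystokinin receptor gene beside Cckbr, 0.485, 3.13 and 12.4 CPM.

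Among the lower genes, Prdm16, a regulator of cell fate that modifies chromatin, averaged 8.54 CPM in Scr, 0.954 in ZIP and 0.126 in OE. The transcription factor gene Twist2 averaged 5.46, 0.868 and 0.0752 CPM, and the FGF receptor gene Fgfr1 9.19, 1.21 and 0.0981 CPM. Ngfr, the low-affinity receptor of nerve growth factor, averaged 92.5 CPM in Scr, 27.7 in ZIP and 30.0 in OE.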
